A study of Mus musculus with 3 samples.

Results

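In mouse testis, 1220 assembled transcript isoforms of 1055 genes began inside a gene whose annotated models all began further upstream, and ended where an annotated model of that gene ended. They were taken from 50081 transcript models, of which 7033 carried a Cufflinks-type identifier together with a gene symbol and the code NM_N, and 6996 of these had an annotated model (a code containing _R) of the same symbol, chromosome and strand. An isoform was kept when its 5′ end lay 200 bp or more downstream of the 5′ end of every such annotated model and its 3′ end lay less than 200 bp from the 3′ end of at least 1. This was 17.4% of the comparable isoforms, and 20.2% of the 5225 genes with a comparable isoform had at least 1. The positions that chose the isoforms are given below as a description. A start of an assembled isoform means here the 5′ end of its model. CAGE signal at these ends was not examined. Whether transcription begins there, or the model is incomplete at its 5′ end, was not tested.

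The study mapped capped 5′ ends of RNA by CAGE and polyadenylated 3′ ends by PAS-Seq in whole testes of wild-type C57BL/6J mice. All RNA was total RNA: juvenile testes (10.5 dpp) gave 1 CAGE library, and adult testes gave 1 CAGE library and 1 PAS-Seq library, the last read to 100 nt. The analysed table covers the series as a whole, so an isoform could not be assigned to an age, to a library or to a cell type, and no expression level or depth was analysed. The testis label could not be checked against marker levels for the same reason. With no values per library there was no replicate error to test against. Shares carry exact Clopper-Pearson 95% intervals, which cover counting error only, and isoforms of 1 gene share sequence and are not independent. Positions are in mm9, counted from 1.

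A gene can be read from more than one promoter, and a promoter that lies in an intron gives an RNA that lacks the upstream exons and often the start codon that the full-length RNA uses. Male germ cells are known for many such intragenic promoters, as in the gene for angiotensin-converting enzyme, whose germ-cell form is read from a promoter inside the somatic gene. The RNA left by an internal start can encode a shorter protein, can change only the untranslated leader, or can have no coding function. The table marks no coding region, so these outcomes were not told apart here.

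The DNA at some of these starts was looked for among the RefSeq promoters of GRCm38.p6. A promoter was listed there for 762 of the 1055 symbols, and 238 of the isoforms belonged to genes with at least 2. No coordinates were carried between builds. Instead the distance in mm9 from an annotated start to the internal start was set against the distance between pairs of RefSeq starts of the same gene, and 25 isoforms of 23 genes matched within 50 bp (10.5% of the 238). Within 20 bp the match held for only 8 (3.36%), and all values on promoters below rest on the 50 bp match. The RefSeq distance minus the mm9 distance was 17 bp for Dmd, 23 bp for Meig1, 7 bp for Spata19 and -33 bp for Creb3l4. These are differences in spacing, and the match used spacing alone. Whether each RefSeq start of a pair lies at the mm9 start it is named for was not checked by position. The same match found 883 of 1103 annotated internal starts (80.1%) that had promoters to compare. Those starts come from RefSeq themselves, so this share does not measure how often a match is false. The rate of false matches was not measured. The sequences shown run from 100 bases before to 30 bases after the RefSeq start, with CpG dinucleotides in capitals. They are shown for Dmd, which had the largest displacement of all, and for 3 genes of the male germ line, each with its annotated start below it for comparison. Dmd encodes dystrophin, Meig1 a protein that spermatids need, Creb3l4 a membrane-bound CREB-family transcription factor and Spata19 a sperm mitochondrial protein.
Dmd internal start, chrX:85048195-85048324, plus strand: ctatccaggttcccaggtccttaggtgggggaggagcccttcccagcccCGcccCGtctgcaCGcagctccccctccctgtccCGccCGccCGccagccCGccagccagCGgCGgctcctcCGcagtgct
Dmd annotated start, chrX:82948770-82948899, plus strand: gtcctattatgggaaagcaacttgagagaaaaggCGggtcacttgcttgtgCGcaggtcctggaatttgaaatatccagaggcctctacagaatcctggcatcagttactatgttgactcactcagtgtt
Meig1 internal start, chr2:3419100-3419229, minus strand: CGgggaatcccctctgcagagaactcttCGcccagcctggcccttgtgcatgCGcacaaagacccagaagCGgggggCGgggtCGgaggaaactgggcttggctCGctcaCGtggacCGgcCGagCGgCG
Meig1 annotated start, chr2:3422619-3422748, minus strand: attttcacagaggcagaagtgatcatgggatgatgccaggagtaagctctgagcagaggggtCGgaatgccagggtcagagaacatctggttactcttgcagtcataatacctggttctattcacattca
Creb3l4 internal start, chr3:90243114-90243243, minus strand: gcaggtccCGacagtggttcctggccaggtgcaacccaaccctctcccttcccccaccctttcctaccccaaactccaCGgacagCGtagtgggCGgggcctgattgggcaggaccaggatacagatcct
Creb3l4 annotated start, chr3:90243483-90243612, minus strand: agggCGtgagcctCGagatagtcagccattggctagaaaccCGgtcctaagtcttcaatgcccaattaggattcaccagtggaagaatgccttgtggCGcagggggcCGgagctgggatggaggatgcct
Spata19 internal start, chr9:27397112-27397241, plus strand: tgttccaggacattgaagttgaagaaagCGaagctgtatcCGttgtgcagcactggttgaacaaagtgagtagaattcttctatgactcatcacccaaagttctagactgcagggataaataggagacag
Spata19 annotated start, chr9:27396707-27396836, plus strand: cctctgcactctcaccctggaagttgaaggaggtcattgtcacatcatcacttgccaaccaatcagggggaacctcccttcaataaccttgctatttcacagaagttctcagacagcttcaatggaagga

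The internal start was richer in CpG in some of these genes and poorer in others. Over the whole 300 bases of the RefSeq window, Dmd had 14 CpG at the internal start and 2 at the annotated start. Meig1 had 19 CpG at the internal start and 3 at the annotated start. Creb3l4 went the other way, with 6 at the internal start and 10 at the annotated start, and Spata19 was low at both, with 4 at the internal start and 2 at the annotated start. Across the 24 distinct matched internal starts the median was 15 CpG (quartiles 4.75 and 24.8), against 10 (4 and 24.5) at the 23 annotated starts they were set against and 7 (3 and 20) in all 32851 promoters of the table. The internal start held more CpG in 14 pairs, fewer in 9 and the same number in 1, Ing1, a chromatin-reading tumour suppressor. The median GC content was 56.5% at internal starts, 53.0% at the annotated starts and 52.7% in all promoters. Only starts that a later RefSeq annotation lists could be matched, so these values describe the matched pairs alone. In Cchcr1 and Otud5 the paired starts lay only 204 and 251 bp apart. Their 300-base windows overlap, so the shared bases were counted at both starts, also for the motifs below.

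**Figure D1:**
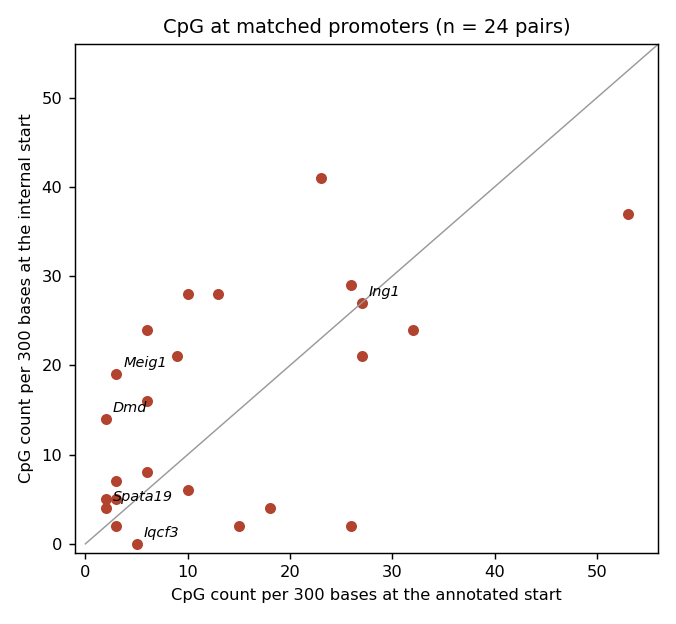
CpG dinucleotides in the 300-base RefSeq window at the internal start (y axis) against the annotated start of the same gene (x axis), 1 point for each of 24 matched pairs, with the line of equality in grey. The 14 points above the line have more CpG at the internal start, and Meig1 (19 against 3) and Dmd (14 against 2) are among them.

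Short promoter motifs were looked for on both strands of the same windows. The TATA-box letters TATAAA were in 0 of 24 windows at internal starts (upper bound 14.2%), in 6 of 23 at the annotated starts (26.1%, 10.2 to 48.4) and in 13.6% of all promoters. The CCAAT-box letters CCAAT were in 11 of 24 windows at internal starts (45.8%, 25.6 to 67.2), in 16 of 23 at annotated starts (69.6%, 47.1 to 86.8) and in 37.4% of all. The letters CAACNG, a core that MYB-family factors such as A-MYB bind, were in 7 of 24 (29.2%, 12.6 to 51.1), in 7 of 23 (30.4%, 13.2 to 52.9) and in 35.0% of all. A match of letters is not a binding site. None of the 3 motifs contains another.

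The internal starts lay far from the annotated ones. The median distance from the nearest annotated start was 12119 bp (quartiles 2246 and 41092), and the range ran from 200 bp to 2099408 bp. They were set beside 1109 annotated isoforms of 910 genes (code NM_R) that began 200 bp or more downstream of another annotated model and ended less than 200 bp from its end. An annotated isoform that began 200 bp or more upstream of any other model of its gene was left out of this set. For distance, exons and splice sites, each was compared only with models of its gene that began 200 bp or more upstream. Models of its gene that began nearer were not used, here and below. The median distance in this annotated set was 4380 bp (634 and 27254). Distances under 1 kb were less common among the assembled isoforms, with 131 of them (10.7%) under 500 bp, against 221 (19.9%) of the annotated ones. The bin from 20 to 50 kb held 245 assembled isoforms (20.1%) and 133 annotated ones. The 200 bp rule set the lower limit of both sets, and the difference was described and not tested.

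**Figure D2:**
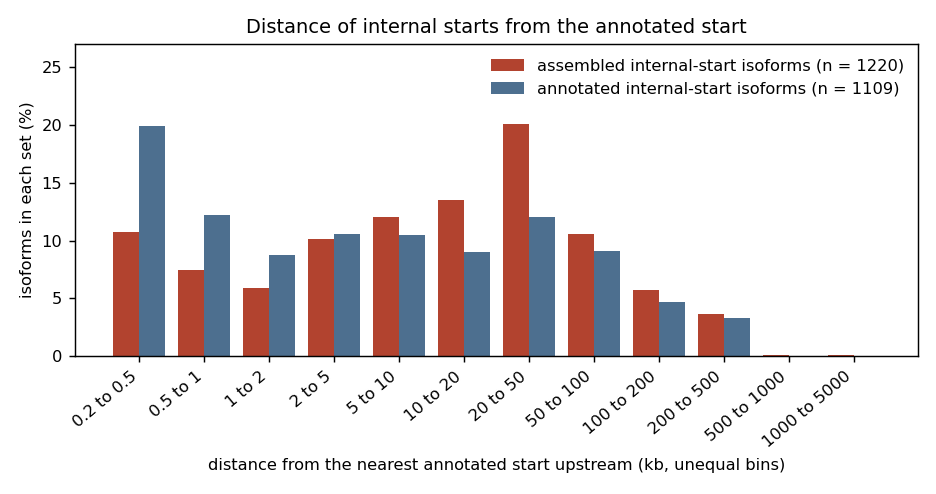
Distance from the nearest annotated start upstream, in kb and in unequal bins (x axis), as the percent of each set (y axis), for 1220 assembled isoforms (red) and 1109 annotated isoforms (blue) with internal starts. The assembled isoforms peak between 20 and 50 kb (20.1%) and the annotated ones between 0.2 and 0.5 kb (19.9%).

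The distance rule passed through a continuous range. Just above it lay 4933430I17Rik at 200 bp, Mtrr at 204 bp, Tmem50b at 210 bp and Rgs11 at 214 bp. Just below it lay isoforms of Hgs at 193 bp, Aprt at 190 bp, 9530068E07Rik at 188 bp, Gss at 187 bp and Klhl22 at 185 bp, which met the rule on ends and were not kept.

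Nearly all internal starts fell in introns. Of the 1220, 1162 (95.2%, 93.9 to 96.4) began in no annotated exon of the gene, 53 (4.34%) in an internal exon and 5 in a first exon, and none began in an annotated exon of another symbol on the same strand (0 of 1220, up to 0.302%). The share was 93.5% (91.9 to 94.9) in the annotated set, counted only against the models that began further upstream. In 11 isoforms (0.902%) the start was exactly the first base of an annotated exon. The first intron held 473 of the starts (38.8%, 36.0 to 41.6), against 752 of 1109 (67.8%, 65.0 to 70.6) in the annotated set. Starts past the middle of the annotated gene were 45.9% (43.1 to 48.7) of the assembled isoforms and 20.5% (18.1 to 23.0) of the annotated ones.

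The first exon joined the gene in 2 main ways. In 600 isoforms (49.2%, 46.3 to 52.0) it was a new exon, whose splice donor (the exon's 3′ edge) was in no annotated model, joined to an annotated acceptor (the 5′ edge of the next exon). In 460 (37.7%, 35.0 to 40.5) its donor was that of an annotated exon and its start lay upstream of that exon, referred to below as an extended exon. Of these 460 isoforms, 10 (2.17%) began in another annotated exon, and in 35 (7.61%, 5.36 to 10.4) the first exon spanned at least 1 whole annotated intron. Among isoforms with 2 or more exons the new first exon made up 51.5%. The annotated set had 73.9% (71.3 to 76.5) of the first form and 15.0% (12.9 to 17.2) of the second. A start within the annotated exon whose donor was used was found in 35 of 1220 (2.87%, 2.01 to 3.97), against 4.60% of the annotated set, and 8 of the 35 began at that exon's first base or that of another annotated exon. A new donor with a new acceptor made up 4.51% and an annotated donor with a new acceptor 1.15%. Single-exon isoforms numbered 56 (4.59%, 3.49 to 5.92), against 2 of 1109 (0.180%) in the annotated set. In other comparable NM_N isoforms they were 0.898% of 557 with an upstream start and 2.59% of 1043 with an annotated start and end. They were 3.98% of 2386 that met none of the rules used to sort isoforms by start and end. Of these 2386, 37.1% had an extended exon and 35.2% a new first exon. The 2386 include the isoforms with an internal start that failed the rule on ends, so they are not a set without internal starts.

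**Figure D3:**
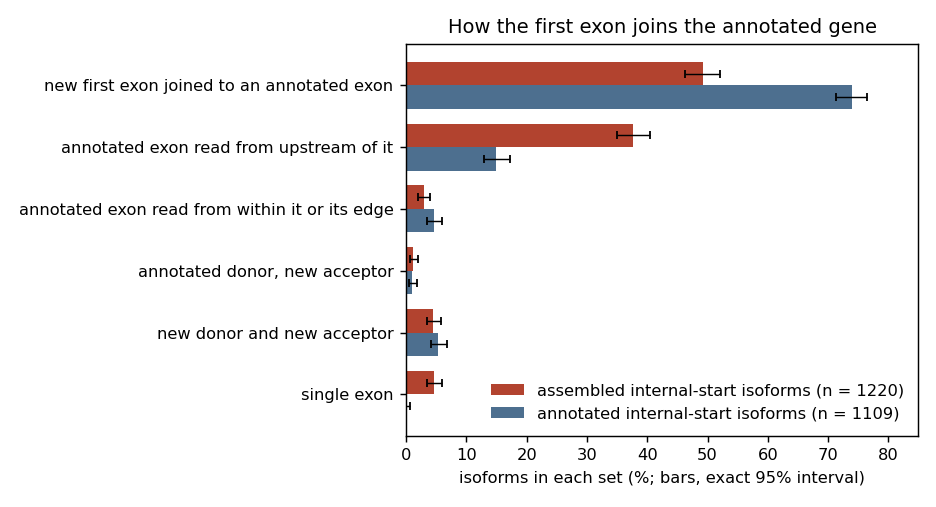
Kinds of first exon (rows) as the percent of each set (x axis, bars from 0, with exact 95% intervals), for 1220 assembled isoforms (red) and 1109 annotated isoforms (blue) with internal starts. A new first exon is the commonest kind in both (49.2% and 73.9%), and an annotated exon read from a start upstream of it is the next (37.7% and 15.0%).

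These forms differed in size and place. New first exons had a median of 117.5 nt (quartiles 42.8 and 225), and were followed by a first intron with a median of 2514.5 bp. Of these 600 isoforms, 49.2% began in the first intron. Extended exons had a median of 346 nt (228 and 565). Their start lay a median of 162.5 nt upstream of the annotated exon (82.8 and 304), close to the 159.5 nt of the 166 such annotated isoforms. Only 30.2% of the 460 extended ones began in the first intron, against 73.5% of the annotated ones of that form, and 54.8% began past the middle of the gene, against 17.5%. The 56 single-exon isoforms had a median length of 2098.5 nt, and 85.7% (73.8 to 93.6) of them began past the middle of the gene. First exons under 25 nt, a length at which spliced reads are hard to place, were found in 63 isoforms.

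Internal starts left out upstream exons, and most later introns were annotated ones. The assembled isoforms began downstream of a median of 2 annotated exons (quartiles 1 and 6, at most 64), and the annotated set of 1 (1 and 2, at most 54). At least 5 exons were left out in 393 assembled isoforms (32.2%, 29.6 to 34.9) and 76 annotated ones (6.85%, 5.44 to 8.50), and at least 10 in 183 (15.0%, 13.0 to 17.1) and 32 (2.89%, 1.98 to 4.05). Among assembled isoforms with 3 or more exons, every intron after the first was annotated in 877 of 1061 (82.7%, 80.2 to 84.9), against 77.7% (75.1 to 80.2) in the annotated set. An isoform with more introns has more chances to fail this measure, and the sets were not matched for intron number. The assembled isoforms had a median of 7 exons and 2540.5 nt, and the annotated ones 10 exons and 3169 nt.

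**Figure D4:**
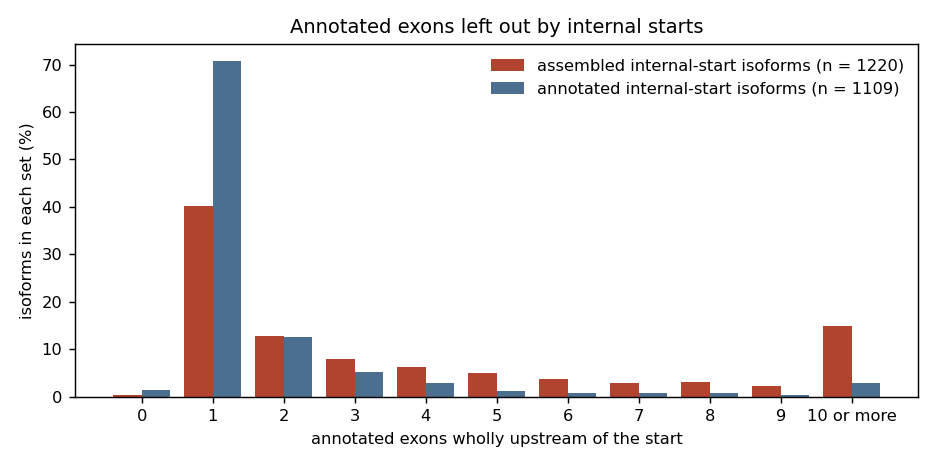
Annotated exons that lie wholly upstream of the internal start (x axis, the last bin is 10 or more) as the percent of each set (y axis), for 1220 assembled isoforms (red) and 1109 annotated isoforms (blue). A single exon is left out in 40.2% of the assembled and 70.8% of the annotated isoforms, and 10 or more in 15.0% and 2.89%.

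Much of the mature RNA remained. The spliced length was a median of 88.6% (quartiles 70.1 and 98.5) of that of the matched annotated model, against 97.9% (91.4 and 102) in the annotated set. The annotated exonic bases downstream of the start were a median of 82.8% in the assembled isoforms and 92.4% in the annotated ones. How much of the spliced length came from new or extended first exons was not worked out. In 259 isoforms (21.2%) the RNA was longer than the annotated one despite its later start. The 3′ end was identical to an annotated end in 636 isoforms (52.1%, 49.3 to 55.0) and within 10 bp in 778 (63.8%). The rule on ends chose these isoforms. Without it, 2483 assembled isoforms had an internal start, of which 835 (33.6%) ended 200 bp or more upstream of every annotated end and 405 (16.3%) that far downstream.

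Dystrophin gave the longest displacement. The Dmd isoform (chromosome X, 82293617 to 82450389, plus strand) began 2099408 bp downstream of the annotated start, past 62 of 79 annotated exons, and joined a new first exon of 182 nt to the remaining exons. It had 18 exons and 4584 nt, 33.1% of the annotated 13852 nt, and all 16 later introns were annotated. The dystrophin gene is known for short products made from internal promoters, the most distal of them being Dp71. The next was Thsd7b at 890481 bp, with 10 exons against 28 in the annotated model. Ptprm, a receptor tyrosine phosphatase, followed at 442084 bp, with a first exon of only 23 nt. Zfpm2, a cofactor of GATA factors in the gonad, lay at 440843 bp. Other large displacements were those of Grin2b (439328 bp, a single exon of 4379 nt), Msi2 (371362 bp), Nckap5 (368563 bp), Reln (346599 bp) and Robo1 (341729 bp). Grin2b encodes a glutamate receptor subunit, Reln an extracellular guide of neuron migration and Robo1 an axon guidance receptor. Displacements here and below are from the nearest annotated start. Another annotated model began further upstream in Msi2, Nckap5, Pknox2, Loh12cr1, Zfp516, Rfx3 and Dnmt3l. From the outermost annotated start the distance was 706268 bp for Nckap5 and 64506 bp for Rfx3. For the isoforms of Dnmt3l it was 12975 and 14872 bp.

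The 5 isoforms that left out the most exons were that of Dmd and those of 4 further genes. Col16a1, a collagen, lost 64 of 70 exons and had 991 nt, against 5206 nt in the annotated model. Lama3, a laminin chain, lost 63 of 75 exons. Macf1, which links microtubules to actin, lost 57 of 98 and still had 42 exons and 7936 nt. Stab2, a scavenger receptor, lost 51 of 69. At the other end, the 5 isoforms with the most exons each began past 1 annotated exon, or past 7 in the case of Vps13b. The 2 isoforms of the axonemal dynein Dnahc2, with 85 and 83 exons, began 2530 bp into the gene. Fbn1 (fibrillin) had 65 exons and a displacement of 373 bp, Vps13b had 56 exons after 67167 bp, and Pi4ka, a lipid kinase, had 55 after 428 bp.

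Most genes had 1 internal start. There was 1 isoform in 914 of 1055 genes, 2 in 119, 3 in 20 and 4 in 2. Of the 141 genes with at least 2, 107 (75.9%, 68.0 to 82.7) had starts over 50 bp apart, and 1174 distinct starts remained in all. Gm98 had 4 isoforms with 4 starts, 11373, 11763, 17026 and 21071 bp into the gene, each in an extended exon, and with every later intron annotated. Pknox2, a homeobox gene, had 4 isoforms from 2 starts, 127393 and 155712 bp into the gene. Alpl, the tissue-nonspecific alkaline phosphatase, had 3 starts in its first intron, 26275, 26617 and 30048 bp into the gene, each with 12 exons and all 10 later introns annotated. The first exon of the isoform at 30048 bp had only 22 nt. Actg2, the smooth muscle gamma actin, had 3 isoforms at 220, 8252 and 8335 bp, and 1700026J04Rik had 3 at 2972, 2988 and 6339 bp. For 774 of the 1055 genes (73.4%) every comparable assembled isoform had an internal start of this kind, and 119 (11.3%) also had one with both an annotated start and an annotated end. The 5225 genes with a comparable isoform had 6996 of them, and a gene with only 1 belongs to a single class by default. The same share for other classes was not worked out, and the annotated models of these genes do not enter it. On the same strand, another NM_N isoform began within 50 bp of 103 of the 1220 starts, an XX_N isoform within 50 bp of 3, and no model did so for the other 1114.

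**Figure D5:**
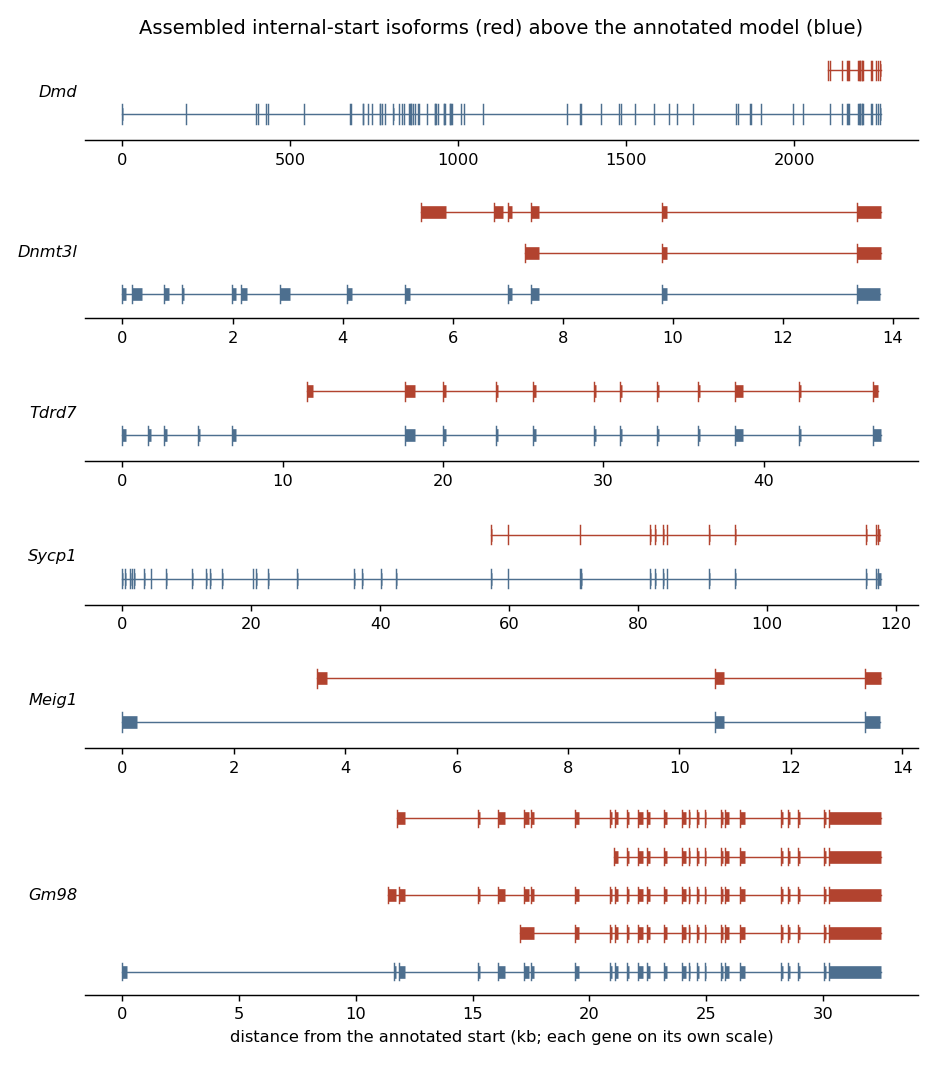
Exon maps of 6 genes, with assembled internal-start isoforms in red above the matched annotated model in blue, against distance from the annotated start in kb (x axis, each gene on its own scale, thick bars are exons with a tick at each exon start). Dmd keeps its last 17 annotated exons behind a new first exon, Dnmt3l and Gm98 have several internal starts, and Sycp1 starts at the first base of an annotated exon.

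Internal starts seldom faced a start on the other strand. A divergent partner, an opposite-strand start 1 to 500 bp upstream, was found for 36 of 1220 isoforms (2.95%, 2.08 to 4.06), against 14.2% of 17410 annotated NM_R models and 8.56% of all comparable NM_N isoforms. The annotated models of the same 1055 genes had one in 138 of 1387 cases (9.95%, 8.42 to 11.6), and the annotated internal-start isoforms in 55 of 1109 (4.96%, 3.76 to 6.41). Isoforms with a new first exon had one in 4.33% (2.85 to 6.29) and those with an extended exon in 1.52% (0.614 to 3.11). The partner was an unannotated CUFF model (XX_C) in 18 of the 36 cases and an NM_R model in 10. The closest was at Anapc16, a subunit of the anaphase-promoting complex, whose isoform began 12 bp from Ascc1. Mgmt, a DNA repair enzyme, followed at 25 bp from a CUFF model, and its start lay 231189 bp into the gene. The others within the 10 closest were Zfp367 (40 bp), Loh12cr1 (50 bp), Sec11c (58 bp), Zfp516 (62 bp, facing 4930592I03Rik), the 2 isoforms of Smoc2 (71 bp, facing 4930474M22Rik), Arhgap28 (77 bp) and Insr, the insulin receptor (81 bp). Anapc16 and Zfp367 were themselves displaced by only 319 and 743 bp from the annotated start.

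Listed genes of germ cell development with an internal start were Tdrd7, Sycp1, Sall4, Rfx3 and Mybl2. Of the genes with a comparable isoform in 16 lists of testis and control genes, 36 of 235 (15.3%) had one, against 20.2% of all 5225. No list was tested against the rest, and the counts below are out of the listed genes with a comparable isoform. In the piRNA pathway 1 of 9 genes had one: Tdrd7, a Tudor-domain protein of germ granules, began 11511 bp into the gene (chromosome 4, 46011845 to 46047453), with a new first exon of 384 nt, and left out 5 of 16 exons. In meiotic prophase 1 of 9 had one: Sycp1, the transverse filament of the synaptonemal complex, began at the first base of an annotated exon, past 20 of 33 exons, (chromosome 3, 102622543 to 102682778) and had 1415 of 3437 nt. Of 5 spermatid and sperm genes none had one. Of 5 spermatogonial genes 1 had one, Sall4, a zinc-finger factor of undifferentiated spermatogonia, which lost its first exon of 4 and began 10324 bp in. Of 14 germline transcription factors 2 had one: Rfx3, a regulator of cilium genes, at 36288 bp, and Mybl2, the B-MYB relative of A-MYB, at 4715 bp.

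Axonemal genes had 5 of 22, of which 4 are described. Dnahc7b, an inner-arm dynein heavy chain, began 59113 bp in past 13 of 66 exons and had 54 exons, of which the first, of only 24 nt, was new. Tsga10, a sperm tail protein, began 22631 bp in, Ift122, of the intraflagellar transport machinery, 15673 bp in, and Dnahc2 2530 bp in.

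Chromatin regulators had 8 of 40. In order of displacement these were Chd9 (206068 bp), Atrx (98032 bp), Tet2 (72753 bp), Arid1a (57450 bp), Mll1 (35521 bp), Dnmt3l, Chd3 (4464 bp) and Ezh2 (246 bp). Chd9 had 8 exons, against 40, and 39.9% of the annotated length, and Atrx, a chromatin remodeller, 43.1%. Mll1, a histone H3K4 methyltransferase, began in an extended exon after 4 of 36 exons and kept 13244 of 16439 nt. Dnmt3l, the cofactor of de novo DNA methylation in male germ cells, had 2 isoforms, at 5420 and 7317 bp (chromosome 10, 77518007 and 77519904 to 77526361). They began past 9 and 10 of 13 annotated exons and had 1353 and 765 nt, against 1669 nt. Dnmt3l is known to be read from different promoters in male and female germ cells, some of them inside the gene.

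Kinases and phosphatases had 9 of 57. The displacements ran from 220844 bp at Prkd1, protein kinase D1, and 81511 bp at Stk10 down to 424 bp at Akt1. Csnk2a1, the catalytic subunit of casein kinase 2, had 3 isoforms at 45801, 48502 and 51911 bp, the last a single exon of 3269 nt. Cdk16, a kinase needed for spermatogenesis, had 2, at 1062 and 4398 bp, both past 1 exon and with 16 exons. Gsk3a, which acts in sperm motility, began 2029 bp in, Mapk15 1253 bp in, Stk33 63570 bp in and Prkar2b, a regulatory subunit of protein kinase A, 67166 bp in. RNA-binding and translation genes had 3 of 24: Msi2 (Musashi-2), Cpeb4 at 739 and 46579 bp, and Paip2b at 10945 and 21549 bp. Ubiquitin and autophagy genes had 4 of 36: Fbxw11 at 65259 bp, Ubr2, a ubiquitin ligase of meiosis, at 29201 bp, Usp1 at 6920 bp and Usp42 at 1200 bp.

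Somatic and control lists were small. Of 3 Leydig genes 1 had an internal start, Hsd3b1, a steroidogenic enzyme, at 1464 bp. None of 5 Sertoli genes and not the 1 peritubular, vascular or immune gene had one. No gene of the other-tissue list had a comparable isoform. Of 6 housekeeping genes 1 had one, Hprt, the purine salvage enzyme, which began 24256 bp in after 5 of 9 exons with a first exon of 28 nt.

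A list of 10 genes known for germ-cell starts inside the gene had none among the 1055. Of these 10, 3 had a comparable isoform, and each of these had an internal start that failed the rule on ends. Camk4, whose germ-cell product calspermin is read from an internal promoter, had an isoform of 4 exons that began 242939 bp in, with its end at -1347 bp from the annotated end (negative is upstream). Prkaca, the catalytic subunit of protein kinase A, whose sperm form has its own first exon, had one of 10 exons that began 3769 bp in, with its end at -1142 bp. Sox5, which has a short testis form, had one of 9 exons that began 262445 bp in, with its end at -4868 bp. In Ace, Crem, Dnmt1 and Spag16 an internal start was already annotated. Whether it is the known germ-cell start was not checked for Crem, Dnmt1 and Spag16. The annotated germ-cell Ace model began 7263 bp in and had 14 exons, against 25 in the long one. Kit had 2 annotated models with starts 4 bp apart and no assembled one, Pomc 1 annotated model, and Fer 2 isoforms coded XX_N that were not compared.

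Internal starts were found on every chromosome with a comparable isoform. Among chromosomes with at least 100 comparable isoforms the share kept ran from 14.3% on chromosome 12 (36 of 251) to 24.1% on chromosome 15 (65 of 270), with 18.6% on X (41 of 221). For 37 isoforms (3.03%, 2.14 to 4.16) every annotated model of the gene carried the code XX, against 2.30% of all comparable isoforms. These included Scn2a1, a voltage-gated sodium channel, with 3 isoforms, and Gabbr1, a GABA receptor, which were picked from the list after it was seen. What XX stands for is not stated in the sources used here.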

How the data were processed

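Each library type and age (juvenile CAGE, adult CAGE, adult PAS-Seq) was run once. The authors deposited 1 table of transcript models (12 columns of a BED file, with no header), which gives positions, exon numbers and exon lengths in base pairs. TopHat2 2.0.4 and the build mm9 are named in the submitters' processing notes. How models were assembled and how the libraries set their ends is not stated in the sources used here. No model was filtered out.

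For each isoform the annotated models of the gene were compared base by base. For an annotated isoform these were only the models that began 200 bp or more upstream of it. The matched annotated model was the one with an end less than 200 bp away that shared most introns. Splice sites matched at 0 bp. Genes were named by rule: listed genes, the 10 largest displacements, the 5 genes with most isoforms, the 5 isoforms with most exons and with most exons left out, the 5 on each side of the 200 bp limit and the 10 closest divergent partners. A few genes that the rule names are not reported here. Promoter examples and mapped genes were picked once their values were known. The isoforms and the 16 lists were chosen with earlier results of these data known. Sequences are RefSeq's, in GRCm38.p6. The planned share of lost coding starts was not computed, because no coding region is marked. The sorting into classes was tested on 400 simulated isoforms with new, extended or shortened first exons, or upstream starts or shortened ends. All 400 were recovered. Each simulated gene had a single annotated model, and divergent partners and promoter matching were not simulated. Python 3.11.15, NumPy 2.4.6 and SciPy 1.17.1 were used.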

Additional observations from a re-analysis of the deposited data

How the results depend on the processing

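Among the recomputed values 105 stayed within 1.5 times for counts, or within the interval of the value, and 18 did not. The 105 include those from counting every model with a RefSeq identifier as annotated, which added 0 models. They also include those from leaving out unplaced sequences, which kept all 1220 isoforms and changed no value. Raising the limit on the start to 500 bp left 15.6% of comparable isoforms, with a median displacement of 15573 bp, 3 exons left out, 86.9% of the annotated length and a divergent partner in 2.02%. At 1000 bp these were 14.3%, 18869 bp, 3 exons, 85% and 1.80%, and new first exons made up 48.4% of isoforms with 2 or more exons, against 51.5% as reported. Requiring the end within 50 bp left 12.6%, with 46.9% new first exons by the same count and an internal start in 10.6% of listed genes. Counting starts within 50 bp once gave 18.5%, and leaving out single-exon isoforms made their share 0 by construction. Allowing a partner within 1000 bp gave 5%. Leaving out first exons under 25 nt, chosen after seeing the data, left 16.5%. The planned share of lost coding starts was not run. No paired analysis was possible because each library type was run once, no replicate numbers are shared and no result comes from a test. The depth of the libraries is unknown, so starts that were not assembled cannot be counted as absent.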
